A study of Mus musculus with 12 samples.

Results

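The genes described here encode the proteins of the cytosolic ribosome. They were chosen by name, as protein-coding genes of the GENCODE M21 annotation whose symbol is Rpl or Rps followed by a number and an optional a or x, together with Rplp0, Rplp1, Rplp2 and Rpsa. The choice gave 76 genes of the 54392 gene rows of the expression table, 46 for the large and 30 for the small ribosomal subunit. They lie on 19 chromosomes of the mouse build GRCm38, with 14 of them on chromosome 7. All 76 passed the filter on low values, which asked for 10 or more normalized counts in 3 or more libraries. Rps3a1, Fau and Rack1, among others, also belong to the ribosome but do not match the naming rule.

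The study measured RNA by sequencing in 12 libraries of NIH-3T3, a line of immortal fibroblasts from mouse embryos. The 4 groups of 3 libraries were Crls1 wild type (WT) and 3 Crls1 knockout lines called KO1, KO2 and KO3. The product of Crls1, cardiolipin synthase, makes cardiolipin, a lipid of the mitochondrial inner membrane. Each knockout line was grown from 1 sorted cell after transfection with a vector for Cas9 and a Crls1 guide, so each line is 1 clone. All groups had the same medium with high glucose, pyruvate, uridine and serum. The labels do not say whether WT cells went through the same transfection and sorting, so clone history and loss of Crls1 cannot be told apart. Nor do they say that the 3 libraries of a group came from separate cultures, so all p-values measure only the spread between these libraries, which may be technical.

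Crls1 itself had normalized counts of 740, 873 and 834 in WT, of 209, 209 and 213 in KO1, of 336, 338 and 374 in KO2 and of 363, 372 and 408 in KO3. Every clone library lay below every WT library, in the direction of the labels. Library depth was 32929242 to 42211807 reads. The 9 fibroblast markers on a fixed list all had counts of at least 10 in every group, with summed counts of 870776 to 987104 per library. The lists of epithelial, blood, endothelial and skeletal muscle markers summed to at most 371 in any library.

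Ribosomal proteins are made in nearly matched amounts, imported into the nucleus and assembled onto ribosomal RNA in the nucleolus, after which the subunits are exported to the cytoplasm. In vertebrates their mRNAs typically begin with a C followed by a run of pyrimidines, the 5′ terminal oligopyrimidine (TOP) motif, through which mTOR and LARP1 control their translation. Growing fibroblasts devote a large share of their transcripts to this family, and most of its genes have many processed pseudogenes.

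The start of the transcript is therefore shown for 7 genes that the results turn on. RefSeq start windows (build GRCm38.p6) were found for 56 of the 76 genes. Each window below runs from 10 bases before the annotated start to 20 bases from it, on the strand of the gene, and capitals mark a C followed by 4 or more C or T.
Rplp2, chr7:141447641-141447670, plus strand: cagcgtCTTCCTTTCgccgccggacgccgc
Rpl35, chr2:39005112-39005141, minus strand: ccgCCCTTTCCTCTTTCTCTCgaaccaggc
Rps6, chr4:86857348-86857377, minus strand: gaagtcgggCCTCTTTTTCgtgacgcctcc
Rpl12, chr2:32961702-32961731, plus strand: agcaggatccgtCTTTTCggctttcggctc
Rps27, chr3:90213629-90213658, minus strand: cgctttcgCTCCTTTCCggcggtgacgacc
Rpsa, chr9:120127756-120127785, plus strand: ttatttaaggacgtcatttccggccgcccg
Rpl4, chr9:64173377-64173406, plus strand: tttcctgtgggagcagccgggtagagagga

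The first 5 windows hold such a tract and the windows of Rpsa and Rpl4 do not. A tract beginning within 10 bases of the annotated start was found in 31 of the 56 genes (55.4%), against 29.9% of 27025 genes in the same table. In the longer windows of 250 bases before and 50 after the start, searched on both strands, the motif CCGGAAG occurred in 41.1% of the ribosomal protein genes against 9.93% of all genes. The motif GGGCGG occurred in 60.7% against 38.2%, AAGATGGC in 8.93% against 3.19% and TATAAA in 10.7% against 15.7%. These shares describe letters in windows around annotated starts, which can differ from the starts used in these cells.

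The reads of many ribosomal protein genes were divided among the gene and its copies. A copy here is another annotated gene with at least 25% of its own 31-base stretches in the ribosomal protein gene. There were 593 such copies, 581 pseudogenes and 12 annotated as protein-coding, and 74 of the 76 genes had at least 1. Copies held 19.0% to 22.7% of the summed reads of genes and copies per library. The burden was uneven: 41 genes kept over 99% of these reads in their own row, 14 kept under 50% and 6 under 10%.

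Rps2, a protein of the small subunit near the mRNA entry channel, kept 0.705% of the reads in its own row. Rps18 kept 2.99%, Rps12 3.89%, Rps27 6.04%, Rpl5 6.05% and Rpl12 6.91%. The row of Rpl5 had a mean normalized count of 3309, whereas its pseudogene Gm15500, which shares 988 of its 989 stretches with Rpl5, had 51358. Rps12-ps3, annotated as protein-coding, shares all 464 of its stretches with Rps12. For these 6 genes the deposited row is a small remainder of the reads, and a gene and its copies cannot be told apart in the table. Values with the reads of all copies added are therefore given beside the rows of these genes.

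Rps27, a zinc finger protein of the small subunit (chr3:90212522-90213651, minus strand, 4 exons), showed this most plainly. Its coding sequence has 252 bases in GRCm38, and all 252 are identical in the copy Rps27rt. The opening 120 coding bases are shown with the start codon in capitals, and they hold for both genes.
Rps27 and Rps27rt, coding bases 1 to 120: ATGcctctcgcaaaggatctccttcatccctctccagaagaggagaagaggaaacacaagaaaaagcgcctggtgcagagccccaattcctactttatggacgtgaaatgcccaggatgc

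The row of Rps27 had 3777, 337 and 273 normalized counts in WT, while Rps27rt had 3655, 10509 and 10234 in the same libraries. In the clones Rps27 lay between 195 and 881 and Rps27rt between 9459 and 12937. The large drop and rise within WT thus ran in opposite directions in the 2 rows. With copies added, Rps27 had 7432, 10846 and 10506 in WT and 10102 to 13183 in the clones. Rps27 passed the test in no comparison, either alone or with its copies, in the model described next.

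**Figure D1:**
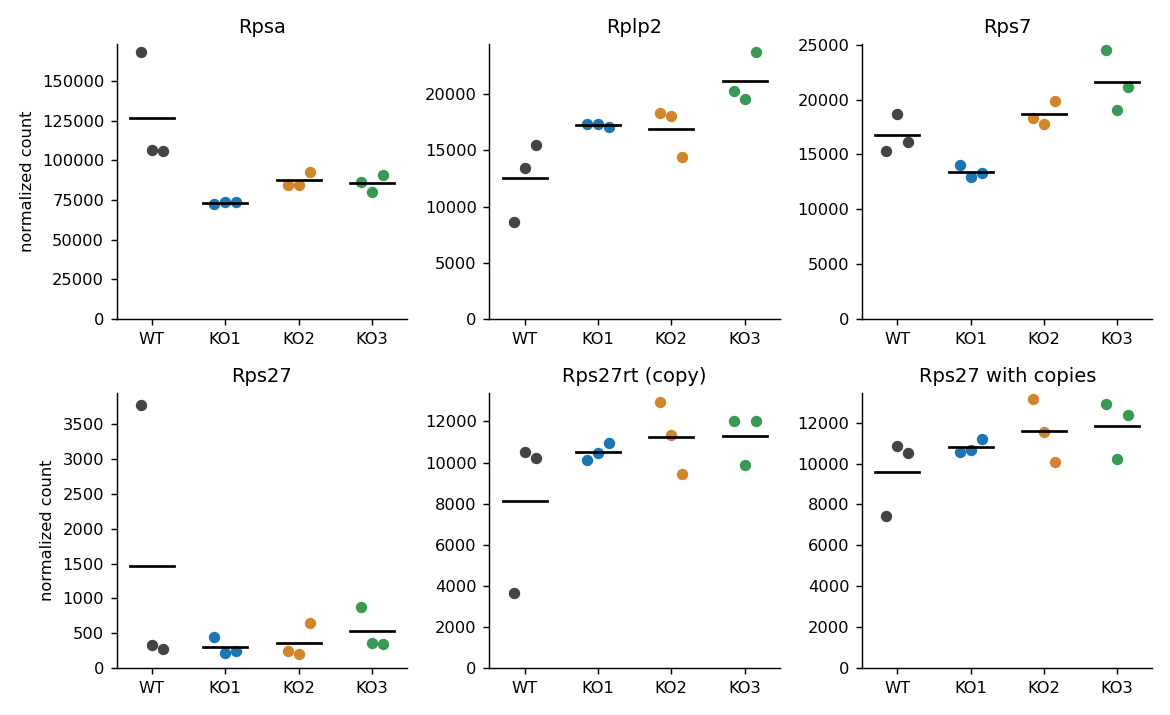
Normalized counts (y axes, each from 0) of Rpsa, Rplp2, Rps7, Rps27, the copy Rps27rt and Rps27 with its copies in the 4 groups (x axes). Points are libraries in replicate order and bars are means of 3. WT replicate 1 is the highest WT point for Rpsa and Rps27 (3777 against 337 and 273) and the lowest for Rplp2, Rps7, Rps27rt and Rps27 with copies.

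The 3 comparisons with WT share its libraries, so their values are given side by side. All comparisons used limma on log2(normalized count + 1) over the 12 libraries, with p-values adjusted by Benjamini-Hochberg over 15073 genes and a threshold of 0.05. A gene is said to rise or fall only where it passed this threshold. Fold changes are log2 differences on that scale, with the standard error.

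Levels of different genes were compared per kilobase of the principal transcript, with copies added. On this scale, as means over 12 libraries, Rpl41 had 99775 normalized counts per kilobase, Rps12 99078, Rplp1 86965 and Rpl32 71810. The lowest levels were 6564 for Rps20, 15255 for Rps16, 16155 for Rps21 and 16266 for Rpl24, and the median of the 76 genes was 35233. The RNAs thus spanned a wide range although the proteins are used in nearly equal numbers. Principal transcripts were short, with a median of 705 bases and a range of 271 to 3706, so the level per kilobase of a short RNA depends strongly on the annotated length.

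The summed share of reads in the 76 genes was lower in KO1 than in the other clones. The share was 3.74%, 5.00% and 4.94% in the WT libraries, 4.79%, 4.75% and 4.86% in KO1, 5.79%, 5.39% and 5.03% in KO2 and 5.78%, 5.24% and 5.91% in KO3. The mean share (± SD, n = 3) was 4.56% ± 0.712 in WT and 4.80% ± 0.0552 in KO1. It was 5.40% ± 0.378 in KO2 and 5.64% ± 0.358 in KO3. All KO1 libraries lay below WT replicates 2 and 3 and above WT replicate 1. In these own rows all KO2 and KO3 libraries lay above all WT libraries, and KO2 and KO3 overlapped. The margin of KO2 was narrow, with 5.03% in replicate 3 against 5.00% in WT replicate 2. With copies added, KO2 replicate 3 had 6.33%, below WT replicates 2 and 3 (6.40% and 6.37%). The KO3 libraries, at 6.77% or more with copies, stayed above all WT libraries. Without WT replicate 1 the WT mean was 4.97% for own rows and 6.39% with copies. Since libraries were compared as shares, a change in RNA per cell could not be seen, and in bulk RNA fewer cells of a kind and less RNA per cell cannot be told apart.

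WT replicate 1 stood apart from every other library in this family. For each gene, the deviation of a library from the gene's mean over 12 libraries was taken on the log2 scale. The median deviation of the 76 genes was -0.50 in WT replicate 1 and -0.01 and -0.0050 in WT replicates 2 and 3. It was -0.08, -0.13 and -0.07 in KO1, 0.12, 0.04 and -0.04 in KO2, and 0.27, 0.10 and 0.26 in KO3. WT replicate 1 was the lowest of the 12 libraries for 57 of the 76 genes. It was the highest of the 12 for 3 genes, Rpsa, Rpl5 and Rps27.

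**Figure D2:**
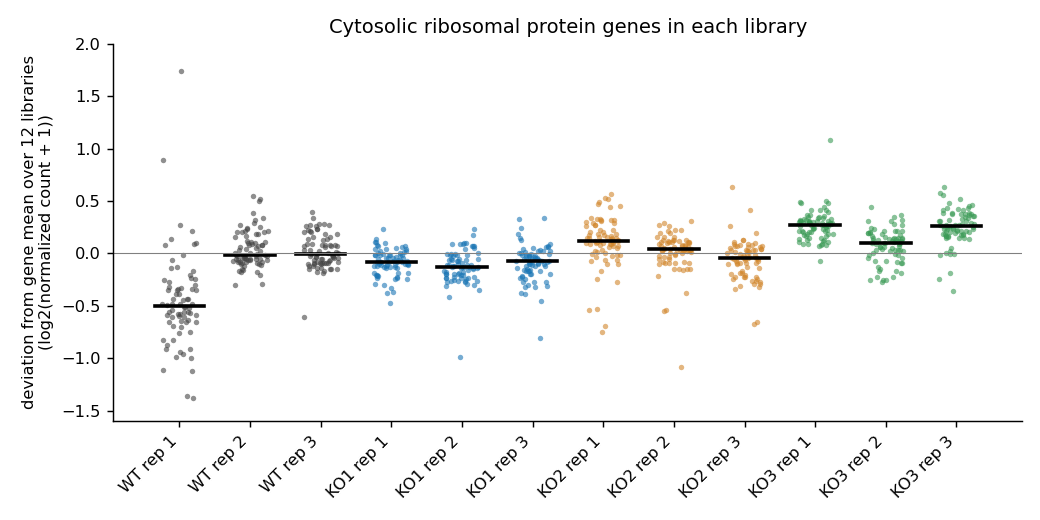
Deviation of each of the 76 ribosomal protein genes from its own mean over 12 libraries (y axis, log2 of normalized count + 1), by library (x axis). Points are genes and black bars are medians, which are lowest in WT replicate 1 (-0.50) and highest in KO3 replicates 1 and 3 (0.27 and 0.26).

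Other short transcripts were also low in WT replicate 1. Among genes outside the family, the median deviation of this library was -0.35 for the 283 with a mean annotated transcript length of up to 500 bases and -0.32 for the 1022 of 500 to 800 bases. It was -0.14 for the 2507 of 800 to 1200 bases and 0.11 for the 1080 above 4000 bases. Of the ribosomal protein genes, 72 of 76 were shorter than 1200 bases, and in the same 3 length classes their medians were -0.56, -0.54 and -0.36. The family was thus lower than other genes of like length in this library. The part of transcript length in this library's low values was not tested. Because 1 WT library lowers the WT mean of most genes of the family, the family's counts against WT are given with and without it, as are the values of single genes where they move most.

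**Figure D3:**
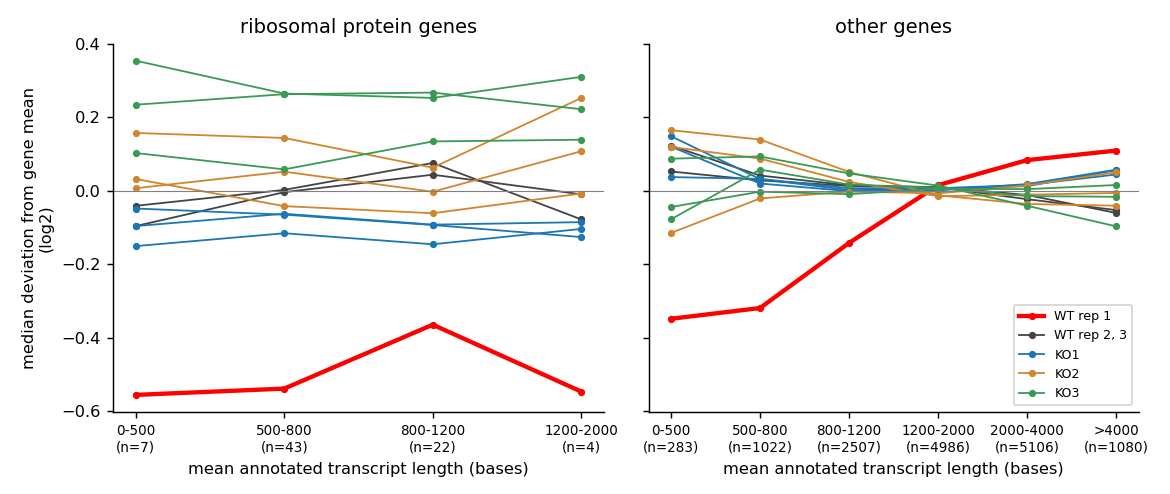
Median deviation from the gene mean (y axis, log2) by mean annotated transcript length in bases (x axis, number of genes in each class in brackets) for ribosomal protein genes (left) and other genes (right). Each line is a library. WT replicate 1 (red) is low in every class of the family and, among other genes, only in classes up to 1200 bases, with -0.35 in the shortest.

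KO1 showed little change in the family as a whole when all 3 WT libraries were used. Of the 76 genes, 3 rose and 9 fell against WT, which is 15.8% called in either direction, against 52.3% of all genes tested. The median log2 difference was 0.05, beside 0.02 for all genes, but it was -0.17 beside -0.15 for all genes after trends with GC content and length were removed from each library. Those that rose included Rpl39 (0.55 ± 0.19, adjusted p = 0.0279) and Rplp2 (0.51 ± 0.17, adjusted p = 0.0273). Both lost the call when WT replicate 1 was left out (0.27 ± 0.11 and 0.26 ± 0.11). Those that fell were Rpl5, Rpsa, Rps18, Rps2, Rpl27a, Rpl4, Rps23, Rps7 and Rpl30.

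Without WT replicate 1 the picture in KO1 changed to falls. Then 28 genes fell and 1 rose, where 25.5% of all genes fell and 27.5% rose, and the median was -0.10 beside 0.01 for all genes. The falls were mostly in the large subunit, with 21 of 46 genes, against 7 of 30 in the small subunit. A difference between the subunits was not tested. With all 12 libraries and the trends with GC content and length removed, 31 genes of the family fell. That is 40.8%, close to the 39.7% of all genes that fell.

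In KO2 the share of the family that rose was close to that of all genes, and falls were fewer. Against WT, 21 rose (27.6%) and 5 fell (6.58%), where 29.9% of all genes rose and 30.5% fell. In either direction 34.2% of the family was called against 60.4% of all genes tested. The median was 0.25 beside 0.0040 for all genes, and 0.08 beside -0.03 after removal of the trends with GC content and length, when 14 rose and 17 fell (28.6% and 33.7% of all genes). The largest rises were in Rpl39 (0.62 ± 0.19), Rpl26 (0.51 ± 0.19), Rps21 (0.48 ± 0.18) and Rplp2 (0.47 ± 0.17). With WT replicate 1 left out, these were 0.34 ± 0.11, 0.21 ± 0.08, 0.27 ± 0.14 and 0.22 ± 0.11, and of the 4 only Rpl39 passed. Rpl26 and Rpl39 lie at the large subunit's exit tunnel for the growing protein chain. The genes that fell were Rpl5, Rps2, Rps18, Rpsa and Rpl4. When WT replicate 1 was left out, 9 rose and 14 fell, where 30.5% and 30.6% of all genes did (61.0% in either direction), and the median was 0.07.

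KO3 had the highest ribosomal protein RNA of the 4 groups. Against WT, 39 genes rose and 2 fell, 53.9% called against 54.1% of all genes tested. The share that rose was 51.3% against 26.8% of all genes, and the median was 0.35 beside 0.0032 for all genes. With WT replicate 1 left out, 30 rose and 3 fell (27.6% and 27.9% of all genes) and the median was 0.19. Both subunits took part, with 20 of 46 large and 19 of 30 small subunit genes that rose. The mean of KO3 was the highest of the 4 group means for 58 of the 76 genes, and for 53 without WT replicate 1.

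**Figure D4:**
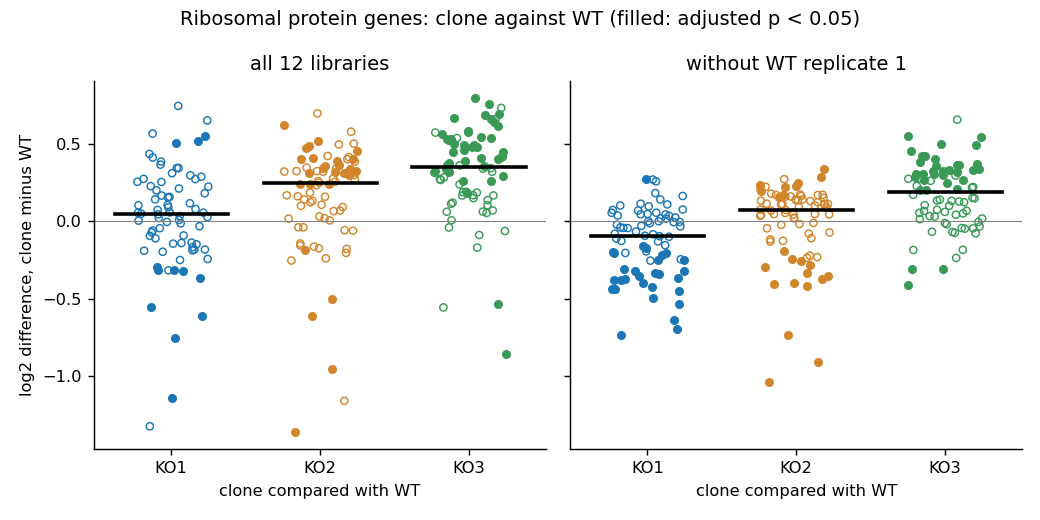
Log2 difference of each of the 76 ribosomal protein genes, clone minus WT (y axis), for KO1, KO2 and KO3 (x axis), with all libraries (left) and without WT replicate 1 (right). Filled points passed an adjusted p of 0.05 and bars are medians, which move from 0.05, 0.25 and 0.35 to -0.10, 0.07 and 0.19.

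Rps15, a protein of the small subunit's head, had 14240, 22684 and 21438 normalized counts in WT and 33467, 30645 and 32449 in KO3. The KO3 libraries all lay above all other libraries, since KO1 and KO2 lay between 21826 and 25985. Its log2 difference from WT was 0.75 ± 0.14 (adjusted p = 0.000517) in KO3, and it rose without WT replicate 1 by 0.54 ± 0.07. In KO1 and KO2 its values of 0.25 ± 0.14 and 0.32 ± 0.14 did not pass.

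Rps29, a small zinc finger protein of the same subunit, had 11638, 16833 and 15044 in WT, 14481, 14551 and 13837 in KO1, 21314, 17661 and 17496 in KO2 and 23946, 21235 and 21912 in KO3. KO2 and KO3 thus lay above all WT and KO1 libraries. The log2 difference from WT was -0.01 ± 0.12 in KO1, 0.39 ± 0.12 in KO2 and 0.64 ± 0.12 in KO3 (adjusted p = 0.974, 0.0125 and 0.000536). Rps16 (0.69 ± 0.18) and Rpl41 (0.68 ± 0.23), whose product is the smallest ribosomal protein, also rose in KO3, and still passed at 0.42 ± 0.10 and 0.32 ± 0.10 without WT replicate 1.

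The authors' deposited table of DESeq2 comparisons gave similar counts for the family. It called 3 genes higher and 10 lower in KO1, 23 higher and 6 lower in KO2, and 39 higher and 2 lower in KO3, at its adjusted p under 0.05. These comparisons use the same groups, so they are not a separate check. No share of all genes called was taken for them, and the counts are not read as results about the family.

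Differences between clones do not use the WT means. KO3 was higher than KO1 in 32 of the 76 genes, where 20.3% of all genes were higher and 43.6% were called in either direction, with a median of 0.29 beside -0.01. By limma 0 genes were lower, as they were at an unadjusted p under 0.05 and by edgeR and DESeq2. All 3 KO3 libraries lay above all 3 KO1 libraries in 57 genes, against 28.8% of all genes tested. Of the 32, 17 were large and 15 were small subunit genes. WT replicate 1 enters these comparisons only through the shared estimate of the spread. When it was left out, 52 genes were higher and 0 lower, where 24.0% of all genes were higher and 26.6% lower (50.6% in either direction).

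Rpl35, a protein at the exit tunnel, had 17053, 18279 and 18238 normalized counts in KO1 and 27138, 26690 and 32488 in KO3, with 14466, 23672 and 24690 in WT. KO3 was above all libraries of the other groups, and KO1 lay inside the wide WT range. The KO3 minus KO1 difference was 0.68 ± 0.16 (adjusted p = 0.00424).

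Rps7, a small subunit protein that can bind MDM2, had 15356, 18654 and 16173 in WT, 14035, 12923 and 13318 in KO1, 18310, 17807 and 19852 in KO2 and 24481, 19040 and 21146 in KO3. KO1 lay below all other libraries, and KO3 above all WT libraries. The difference from WT was -0.31 ± 0.09 in KO1 and 0.36 ± 0.09 in KO3, both past the threshold, and KO3 minus KO1 was 0.68 ± 0.09 (adjusted p = 9.12e-05). Rps7 kept 51.2% of its reads in its own row. With copies added, the fall in KO1 no longer passed (-0.09 ± 0.13) and KO3 minus KO1 was 0.62 ± 0.13.

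Rpl12, which forms the base of the stalk, rose in KO3 against KO1 by 0.63 ± 0.13, and by 0.61 ± 0.13 with copies added. Rpl6 had 40276, 39331 and 39079 in KO1, 55107, 51193 and 48286 in KO2 and 57576, 54957 and 57269 in KO3, and its KO3 minus KO1 difference was 0.52 ± 0.09 (adjusted p = 0.000368). KO1 thus lay below both other clones, without overlap.

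KO2 was higher than KO1 in 7 genes and lower in 1, Rps2, where 20.5% of all genes were higher and 23.9% lower (44.4% in either direction), and the median was 0.15 beside -0.02. The largest rises were Rps7 (0.47 ± 0.09), Rpl32 (0.45 ± 0.09), Rps29 (0.39 ± 0.12) and Rpl6 (0.38 ± 0.09). This count depended on WT replicate 1 through the spread: without it 25 were higher and 2, Rps2 and Rps12, lower, where 24.1% and 27.3% of all genes were (51.4% in either direction). With copies added Rps2 no longer differed past the threshold.

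KO3 was higher than KO2 in 16 genes, against 26.1% of all genes higher and 53.1% called in either direction, with a median of 0.18 beside -0.0059. By limma 0 genes were lower, 1 was at an unadjusted p under 0.05, and edgeR and DESeq2 called 0. After WT replicate 1 was left out, 34 genes were higher and 1, Rpl36a, lower, where 29.3% and 29.9% of all genes were (59.2% in either direction). With all libraries the share of the family that was called, 21.1%, was below that of all genes.

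Rpsa, the laminin receptor protein of the small subunit (chr9:120127689-120132369, plus strand, 6 exons), was below WT in every clone, whereas the family's medians lay above WT with all libraries used. It had 168386, 106225 and 105718 normalized counts in WT, 72255, 73599 and 73677 in KO1, 84581, 84581 and 92754 in KO2 and 86181, 79739 and 90761 in KO3. Every clone library lay below every WT library, and WT replicate 1 was far above the others. Rpsa fell in all clones, with log2 differences of -0.76 ± 0.14 in KO1, -0.50 ± 0.14 in KO2 and -0.53 ± 0.14 in KO3 (adjusted p = 0.000792, 0.00914 and 0.00744). The differences without WT replicate 1 were -0.53 ± 0.06, -0.28 ± 0.06 and -0.31 ± 0.06, and all 3 passed. Copies held almost none of its reads.

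Rpl4, a large subunit protein with a long extension into the ribosomal core, also fell in KO1 and KO2. It had 90656, 94950 and 90814 in WT, 74806, 72759 and 73472 in KO1, 84195, 79856 and 79367 in KO2 and 97074, 92384 and 99071 in KO3. Here WT replicate 1 lay among the other WT libraries. The difference from WT was -0.32 ± 0.06 in KO1 (adjusted p = 0.000412), -0.18 ± 0.06 in KO2 (adjusted p = 0.0132) and 0.06 ± 0.06 in KO3, which did not pass, and the value in KO2 was 0.11, not past the threshold, under quantile normalization. KO3 was higher than KO1 by 0.38 ± 0.06. The principal transcripts of Rpl4 (1538 bases) and Rpsa (1599 bases) are longer than most in the family.

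The acidic stalk recruits the translation factors that hydrolyse GTP, and its 3 genes differed from one another. Rplp2 had 8586, 13455 and 15472 in WT, 17291, 17351 and 17085 in KO1, 18333, 18064 and 14379 in KO2 and 20225, 19554 and 23679 in KO3. KO1 and KO3 lay above all WT libraries and KO2 overlapped them. Rplp2 rose in each clone, with 0.51 ± 0.17 in KO1, 0.47 ± 0.17 in KO2 and 0.80 ± 0.17 in KO3, but without WT replicate 1 only the rise in KO3 passed (0.55 ± 0.11), with 0.26 ± 0.11 in KO1 and 0.22 ± 0.11 in KO2.

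Rplp1, the partner of Rplp2 in the stalk, had 33987, 56034 and 51641 in WT and 36129 to 48280 in the clones. All 9 clone libraries lay between WT replicate 1 and the other WT libraries. Its differences of -0.15, -0.18 and -0.09 did not pass, yet all 3 passed as falls without WT replicate 1 (-0.37, -0.40 and -0.31). Rplp0, the scaffold of the stalk, had 79721 to 92876 in WT, 77455 to 81037 in KO1, 85529 to 91243 in KO2 and 92161 to 101326 in KO3. It passed only in KO3 against KO1 (0.31 ± 0.07, adjusted p = 0.00332).

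Rpl5 and Rpl11 form a particle with 5S ribosomal RNA that can also bind MDM2 when ribosome assembly fails. Rpl11 had 13159, 20902 and 21053 in WT, 17983 to 18350 in KO1, 19548 to 23615 in KO2 and 20547 to 22420 in KO3, and passed in no comparison with all libraries. It fell in KO1 once WT replicate 1 was left out (-0.20 ± 0.07). The row of Rpl5 had 9841, 4161 and 3581 in WT, 2544, 2482 and 2154 in KO1, 1816, 2010 and 2368 in KO2 and 3139, 3018 and 2593 in KO3. Its row fell in all clones, with -1.14 ± 0.28, -1.36 ± 0.28 and -0.86 ± 0.28.

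With copies added, Rpl5 had 56359, 64238 and 61460 in WT, 50694 to 52105 in KO1, 44708 to 47928 in KO2 and 57366 to 63275 in KO3. KO1 and KO2 still lay below every WT library and KO3 overlapped WT. The differences shrank to -0.23 ± 0.06 in KO1 and -0.39 ± 0.06 in KO2, which passed, and to -0.01 ± 0.06 in KO3, which did not.

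The other rows with few own reads also changed when copies were added. Rps2 had 465, 576 and 527 in WT, 379, 341 and 342 in KO1, 277, 276 and 251 in KO2 and 564, 485 and 521 in KO3. The row fell by 0.56 in KO1 and 0.96 in KO2 without overlap with WT. With copies the values were 42169 to 80655 in WT and 45369 to 70787 in the clones, and the differences from WT of -0.25 ± 0.19, -0.25 ± 0.19 and 0.03 ± 0.19 did not pass. Leaving out WT replicate 1 as well gave falls of -0.53 ± 0.10 in KO1, -0.53 ± 0.10 in KO2 and -0.26 ± 0.10 in KO3.

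Rps18, of the small subunit's head, fell by 0.61 in KO1 and in KO2 as a row (adjusted p = 0.000498 and 0.000381), and its values with copies of -0.18 ± 0.15 and -0.08 ± 0.15 did not pass. With WT replicate 1 also left out both passed again as falls (-0.40 ± 0.07 and -0.30 ± 0.07). Rps12 with copies had 23677, 41555 and 42603 in WT and 65889, 65855 and 67711 in KO3, with 38024 to 53691 in KO1 and KO2. KO3 lay above all other libraries, and the difference from WT was 0.94 ± 0.18, or 0.66 ± 0.10 without WT replicate 1.

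Over the whole family, adding copies moved the counts against WT to 3 rises and 3 falls in KO1, 23 and 4 in KO2 and 45 and 1 in KO3. The corresponding shares of all 15001 genes tested were 27.0% and 25.5% in KO1, and 30.0% and 30.7% in KO2. In KO3 26.9% of all genes rose and 54.4% were called in either direction. The medians were 0.10, 0.28 and 0.39, and with WT replicate 1 also left out they were -0.06, 0.09 and 0.21, so that of KO1 changed sign.

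Rps6 is the protein phosphorylated by S6 kinase downstream of mTOR. It had 38162, 55794 and 55732 in WT, 54620 to 58770 in KO1, 55112 to 61778 in KO2 and 71264, 67131 and 67497 in KO3. KO3 lay above all other libraries, with a difference from WT of 0.48 ± 0.12 (adjusted p = 0.0047), and 0.30 ± 0.06 without WT replicate 1. Rps19, mutated in a share of Diamond-Blackfan anaemia, had 7195, 14957 and 16411 in WT and 17572 to 20330 in KO3. It rose in KO3 by 0.67 ± 0.24 (adjusted p = 0.0354), but without WT replicate 1 its 0.29 ± 0.13 did not pass.

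The genes were also divided by the tract at the transcript start and by chromosome. In KO3 against KO1, the median was 0.29 for the 31 genes with a tract and 0.28 for the 25 without, with 15 and 9 genes higher. Against WT in KO3 the medians were 0.34 and 0.36, with 16 and 11 genes that rose, but without WT replicate 1 they were 0.20 and 0.10, with 12 and 9. In KO3 against KO2 the medians were 0.23 with a tract and 0.14 without. The 14 genes on chromosome 7 had a median of 0.47 in KO3 against WT, with 11 that rose, and the 62 on other chromosomes 0.33, with 28. Those medians were 0.29, with 8 that rose, and 0.13, with 22, without WT replicate 1. Between clones the order of the chromosome 7 median and that of other chromosomes varied. The medians were 0.26 and 0.30 in KO3 against KO1, 0.11 and 0.15 in KO2 against KO1, and 0.19 and 0.15 in KO3 against KO2. The share of all chromosome 7 genes that rose was not taken. No test of these splits was made.

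Lists of other genes of the pathway are read beside the shares of all genes tested against WT. These were 26.9% that rose and 25.4% that fell in KO1, 29.9% and 30.5% in KO2, and 26.8% and 27.3% in KO3. Assembly factors cut, modify and fold ribosomal RNA in the nucleolus, and a list of 44 was used. In KO1 35 of them fell and 1 rose (median -0.45), and in KO2 43 fell and 1 rose (median -0.76). KO3 had 17 falls and 9 rises (median -0.15). The falls without WT replicate 1 numbered 38, 43 and 18. KO3 was higher than KO1 in 30 of the 44 and higher than KO2 in 40, with medians of 0.31 and 0.70. Of all genes tested, 20.3% were higher in KO3 than in KO1 and 26.1% were higher than in KO2. With all libraries, the median of the assembly factors in KO2 thus lay below WT while that of the ribosomal proteins lay above it (0.25). Without WT replicate 1 the ribosomal protein median in KO2 was 0.07, with 9 rises and 14 falls.

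Nop58, a core protein of the box C/D methylation complex, had 13892, 12303 and 12572 in WT, 9030, 9134 and 8477 in KO1, 5354, 5806 and 5639 in KO2 and 12512, 13330 and 12504 in KO3. KO1 and KO2 did not overlap WT or each other, and KO3 overlapped WT. Its differences from WT were -0.54 in KO1, -1.21 in KO2 and -0.01 in KO3, the last not past the threshold. Wdr43 (-0.67, -1.31 and -0.05) and Bysl (-0.49, -0.88 and -0.15), both factors for the small subunit, and Rrp1b (-0.88, -1.45 and -0.42) fell in KO1 and KO2, and the values of Bysl and Rrp1b also passed in KO3.

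**Figure D5:**
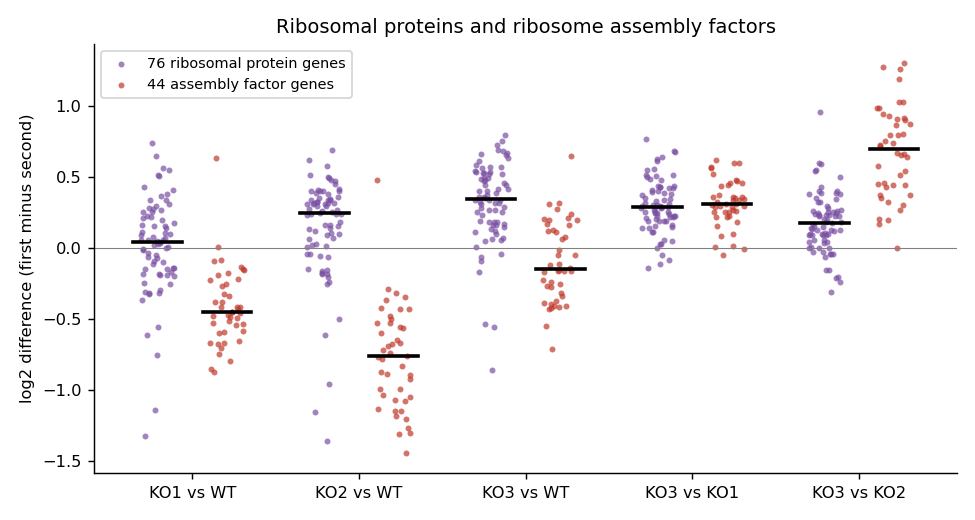
Log2 differences (y axis) of the 76 ribosomal protein genes (purple) and 44 ribosome assembly factor genes (red) in 5 comparisons (x axis, first group minus second), with medians as black bars. With all 12 libraries, the medians in KO2 against WT are 0.25 and -0.76, and in KO3 against KO2 they are 0.18 and 0.70.

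RNA polymerase I transcribes the ribosomal RNA genes, and of 15 genes for this machinery 7 fell in KO1. KO2 had 9 falls and 1 rise, and KO3 2 falls and 1 rise, or 4 falls and 3 rises without WT replicate 1. Polr1b, a large catalytic subunit, fell in all clones (-0.35, -0.79 and -0.58), and Taf1a did as well (-0.26, -0.75 and -0.44). Of 5 chaperones that guard newly made ribosomal proteins, 3, 4 and 2 fell in KO1, KO2 and KO3 (3, 5 and 3 without WT replicate 1). Heatr3, which escorts Rpl5, fell in all 3 (-0.46, -0.78 and -0.23), and Grwd1, the chaperone of Rpl3, fell in KO2 (-0.70).

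Translation factors and other genes whose mRNAs carry a TOP motif were given by a list of 17. KO1 had 2 rises and 8 falls among them, KO2 4 rises and 7 falls, and KO3 7 rises and 2 falls. KO3 was higher than KO1 in 11 of the 17 and higher than KO2 in 10, against 20.3% and 26.1% of all genes. Eef2, the elongation factor that moves the ribosome along the mRNA, had 141387, 144615 and 143454 in WT and 239481, 230567 and 247825 in KO3. Its difference in KO3 was 0.74, in KO2 0.27 and in KO1 0.10, the last not past the threshold. Npm1, the nucleolar chaperone, fell in KO1 (-0.44) and KO2 (-0.69), and so did Btf3 (-0.41 and -0.39).

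Among regulators of TOP translation and MYC, 16 genes were tested. KO1 had 4 rises and 6 falls among them, KO2 3 rises and 7 falls, and KO3 5 rises and 4 falls, or 6 and 2 without WT replicate 1. Several of these shares are near those of all genes. Myc, a transcription factor that drives ribosome production, had 5994, 6393 and 6215 in WT, 4094, 4138 and 4150 in KO1, 2539, 3294 and 3381 in KO2 and 6525, 6797 and 7532 in KO3. It fell in KO1 (-0.59) and KO2 (-1.02), and its 0.16 in KO3 did not pass. Its level was lowest in KO2, where the median of the assembly factors was lowest too, and a link between them was not tested. Deptor, an inhibitor of mTOR, rose in all clones (0.79, 0.93 and 1.99).

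Of the ribosomal protein genes that the naming rule leaves out, Fau, which encodes Rps30 fused to a ubiquitin-like protein, rose in all clones (0.55, 0.63 and 0.77), and Rack1, a scaffold on the small subunit, rose in KO3 (0.49). Among 6 tested paralogs, Rpl7l1, an assembly protein related to Rpl7, fell in all clones (-0.71, -0.91 and -0.43). Rpl39l, a paralog of Rpl39, rose in KO1 (0.39). Calls of the other paralogs are not reported here.

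Of 8 snoRNA host genes with a TOP motif, Snhg5 fell in all clones (-0.73, -1.04 and -0.30) and Gas5 rose in KO3 (0.35). Calls of the other host genes are not reported here. In the list of 9 genes of nucleolar stress and p53, KO1 had 4 rises and 1 fall, KO2 3 rises and 3 falls, and KO3 4 rises and 2 falls. In KO2 these shares are near those of all genes. Mdm2 (0.55, 0.24 and 0.60), Cdkn1a (0.46, 0.17 and 0.38) and Bbc3 (0.67, 0.67 and 1.34), all p53 targets, rose in every clone. Sesn2 rose in KO1 (0.91) and KO3 (1.28). These 4 genes were named for the smallest adjusted p in the list and do not stand for all 9. The falls counted above are not reported by gene here.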

How the data were processed

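RNA was measured in 12 libraries of NIH-3T3 cells, made from total RNA after removal of cytoplasmic ribosomal RNA with random hexamer priming, per the labels' protocols. The submitters' processing notes name cutadapt, Salmon 0.14.1, DESeq2 1.24.0 and GRCm38 (mm10); their settings and any use of strand were not given in the sources used here. Reads of overlapping genes on opposite strands therefore cannot be told apart. The authors deposited a normalized signal per gene and library, of which at least 99.95% of values are whole multiples of a library's smallest step within 0.02. Multiplying back gave whole reads, which may be rounded Salmon estimates. The authors also deposited log2 fold changes and p-values for each clone against WT. GENCODE M21 matched all but 35 of the 54392 identifiers, and 27258 rows were 0 in every library. No column of another sample was present (0).

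The main test was limma 3.58.1 (R 4.3.3; prior variance with a trend) on log2(value + 1), a pseudocount of 1, with all 4 groups in 1 model (8 residual degrees of freedom, two-sided). The log2 scale understates the change of weakly expressed genes. Alternatives were pseudocounts of 0.5 and 5, no filter, a minimum of 50, quantile normalization, edgeR 4.0.16 and DESeq2 1.42.0 on the recovered reads, a replicate block, removal of GC and length trends, copies added and each library left out. The script was tested on simulated data.

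Named genes were, for each comparison, the 4 called genes with the largest rise and the 4 with the largest fall among those with a mean of at least 100, the 3 highest and 3 lowest means, the stalk and 5S genes, Rpsa, Rps6 and Rps19, and up to 4 genes per pathway list with the smallest adjusted p. Rpl30, Rps20, Rpl24, Rpl3, Rpl7 and Rpl36a, the full list of KO1 falls and the splits by start tract, chromosome and copies were chosen after values were seen. Single values of some genes are not reported here. Members and lists were chosen with earlier results of these data known.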

Additional observations from a re-analysis of the deposited data

Results flagged for a closer look

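With all 12 libraries, 2 ribosomal protein genes changed past the threshold in opposite directions in different clones against WT. In both, the difference between the clones was also taken with limma. The 2 genes were picked for calls on opposite sides of the same WT mean, so that difference was bound to be large. Its p-value is therefore not separate support. Without WT replicate 1, 28 genes fell in KO1 and 30 rose in KO3, and how many did both was not counted. Rpl30, which controls its own splicing in yeast, had 12796, 12546 and 10914 normalized counts in WT, 9782, 10155 and 9571 in KO1 and 15757, 14931 and 14475 in KO3. It was -0.29 in KO1 and 0.32 in KO3, so KO3 minus KO1 was 0.61 (adjusted p = 1.72e-05). Rps7 was -0.31 in KO1 and 0.36 in KO3, and KO3 minus KO1 was 0.68 (adjusted p = 9.12e-05). With copies added, the KO1 values of Rpl30 (-0.13) and Rps7 (-0.09) no longer passed, while their differences between KO3 and KO1 did (0.52 and 0.62). Without WT replicate 1 all values named for the own rows passed in the same directions.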

How the results depend on the processing

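No share of all genes called was taken for quantile normalization, edgeR, DESeq2, the replicate block or leaving out libraries other than WT replicate 1. Nor was it taken for pseudogene copies alone or for trends removed without WT replicate 1. Counts under these settings show how calls move and are not read as results about the family. Leaving out each library in turn gave 1 to 14 rises and 7 to 28 falls in KO1 against WT. The ranges were 4 to 38 and 5 to 14 in KO2, and 26 to 48 and 1 to 3 in KO3. Between clones the ranges were 3 to 25 rises and 1 to 2 falls for KO2 against KO1, 23 to 52 rises for KO3 against KO1, and 11 to 34 rises and 0 to 1 falls for KO3 against KO2. The KO2 rises against WT numbered 4 without KO2 replicate 1 and 11 without KO2 replicate 2. KO1 had 1 rise when any 1 of its own libraries was left out, and 9 or 14 without WT replicate 2 or 3. KO2 against KO1 had 3 rises without KO2 replicate 1 and 4 without KO1 replicate 3. In KO3, 1 gene fell without KO3 replicate 3, and 1 was below KO2 without KO3 replicate 1.

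Quantile normalization gave 13 rises in KO1, 40 rises and 3 falls in KO2, 15 rises for KO2 against KO1, 20 for KO3 against KO1, and 9 rises and 2 falls for KO3 against KO2. Under it Rpl4 in KO2 against WT reversed to 0.11, not past the threshold. Removing GC and length trends gave 31 falls and a median of -0.17 in KO1, 17 falls in KO2, and between clones 30 rises (KO2 against KO1), 60 rises (KO3 against KO1) and 35 rises and 1 fall (KO3 against KO2), where 32.2%, 36.6% and 29.8% of all genes also rose. With WT replicate 1 also left out, it gave 0 rises and 41 falls in KO1, with a median of -0.24 beside -0.15 for all genes. KO2 had 10 rises and 20 falls, with a median of 0.015 beside -0.03 for all genes. KO3 had 4 falls, and between clones there were 42, 65 and 48 rises, and 2 falls for KO3 against KO2.

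Adding pseudogene copies left 4 falls in KO1, 1 in KO3 and 0 for KO2 against KO1. Adding protein-coding copies too left 3, 1 and 0, and 1 for KO3 against KO2. With WT replicate 1 also left out there were 28 falls in KO1, 11 rises and 12 falls in KO2, and between clones 26 rises and 2 falls, 58 rises, and 37 rises and 2 falls. Rps2 in KO2 against KO1 reversed to 0.00068 in all 3 settings with copies. KO2 against KO1 had 14 rises by edgeR and 17 by DESeq2. The cause of these shifts was not tested.

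Replicate numbers did not pair the libraries: correlations of same-numbered libraries were -0.221 to 0.123. With a replicate block 12 genes rose in KO2 against WT, and no other count moved by over 1.5 times. Over the 61 results for named genes and 25 alternatives, 1412 values kept their call, 109 lost it and 4 reversed. Only 26 of the 61 results kept call and sign under every alternative. All 61 were results called in the main model, so the tally does not describe the whole family. Alternatives combining WT replicate 1 with copies or trends, and adding protein-coding copies, were chosen after seeing the data.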
